A study of Homo sapiens with 22 samples.

Results

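Primed cells are the rare WM989 melanoma cells that express genes of a drug-resistant program before any drug is given, and they were compared here between wells in which they were common and wells in which they were rare. A well was called primed-rich when over 50% of its cells were labelled primed in the deposited cell table and primed-poor when under 15% were, which gave 4 primed-rich and 4 primed-poor wells. Of the 12531 cells of the experiment 2843 were primed, 2087 of them in primed-rich and 756 in primed-poor wells. The 8 wells came from a single sample of untreated, lineage-barcoded WM989 cells, a BRAF-mutant human melanoma cell line, profiled by droplet single-cell RNA sequencing. No well received a drug, so the classes differ in no labelled treatment. The cells had been sorted either for high EGFR and NGFR or as a mixed control and then grown through several divisions, but the cell labels give only the well and the replicate (r1 or r2), so no well was assigned to a sort. According to the methods each culture was loaded over 2 chip wells. The 2 wells of a replicate and class may therefore be loads of the same culture. In that case p-values and SDs over wells measure mostly the technical spread between loads and not that between cultures, and n = 4 counts loads.

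Melanoma cells of the melanocytic kind depend on SOX10 and MITF, transcription factors that keep pigment genes such as PMEL, MLANA, TYR and DCT on. The primed state is known for low levels of these genes and for receptors such as EGFR, NGFR and AXL, extracellular matrix and secreted growth factors, and it is passed on through cell divisions. Interferon-stimulated genes are switched on when a complex that contains IRF9 binds a DNA element called ISRE, and they include antiviral factors and the MHC class I presentation machinery. Because the state is inherited over several divisions and can also be newly entered or left, primed cells of different wells can have different histories.

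The wells were chosen by their measured share of primed cells, which is therefore given as a description with no test. It was 56.9%, 62.4%, 79.7% and 76.9% in primed-rich wells 1, 2, 5 and 6, and 7.87%, 6.85%, 9.17% and 9.42% in primed-poor wells 3, 4, 7 and 8. The value just above the upper limit was thus 56.9% and the value just under the lower limit 9.42%, with no well between them. Wells 1 to 4 belonged to r1 and wells 5 to 8 to r2. All values by well follow in that order, wells 1, 2, 5 and 6 for primed-rich and wells 3, 4, 7 and 8 for primed-poor. Primed cells numbered 256, 1059, 325 and 447 in primed-rich wells and 126, 263, 196 and 171 in primed-poor wells. Their median depth was 64857, 52839, 105951 and 100564 unique molecular identifiers (UMIs, the counted molecules) per cell in primed-rich wells. In primed-poor wells it was lower in each well, with 49073, 32169, 40188 and 35828 UMIs. Summed over primed cells a well held between 6768610 and 63546812 UMIs. Cell barcodes that occurred in more than 1 well concerned 38 cells in 19 pairs, of which 11 cells were primed.

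The primed label covers 3 deposited clusters, and the wells held them in different proportions. Cluster 2 made up 78.1%, 73.9%, 68.0% and 70.5% of the primed cells of primed-rich wells but 7.14%, 2.66%, 12.8% and 16.4% of those of primed-poor wells. Cluster 8 made up 5.08%, 8.97%, 5.23% and 4.25% against 71.4%, 73.4%, 59.2% and 52.6%. Cluster 9 was present in more even shares, 16.8%, 17.1%, 26.8% and 25.3% against 21.4%, 24.0%, 28.1% and 31.0%. These shares come from the same clustering that named the cells primed and were not tested. Comparisons are therefore also given within cluster 8 alone and within cluster 9 alone. Cluster 2 could be compared only weakly, since wells 3 and 4 held 9 and 7 of its cells. In a sum over cells, a lower level per cell and fewer cells of a kind cannot be told apart.

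**Figure D1:**
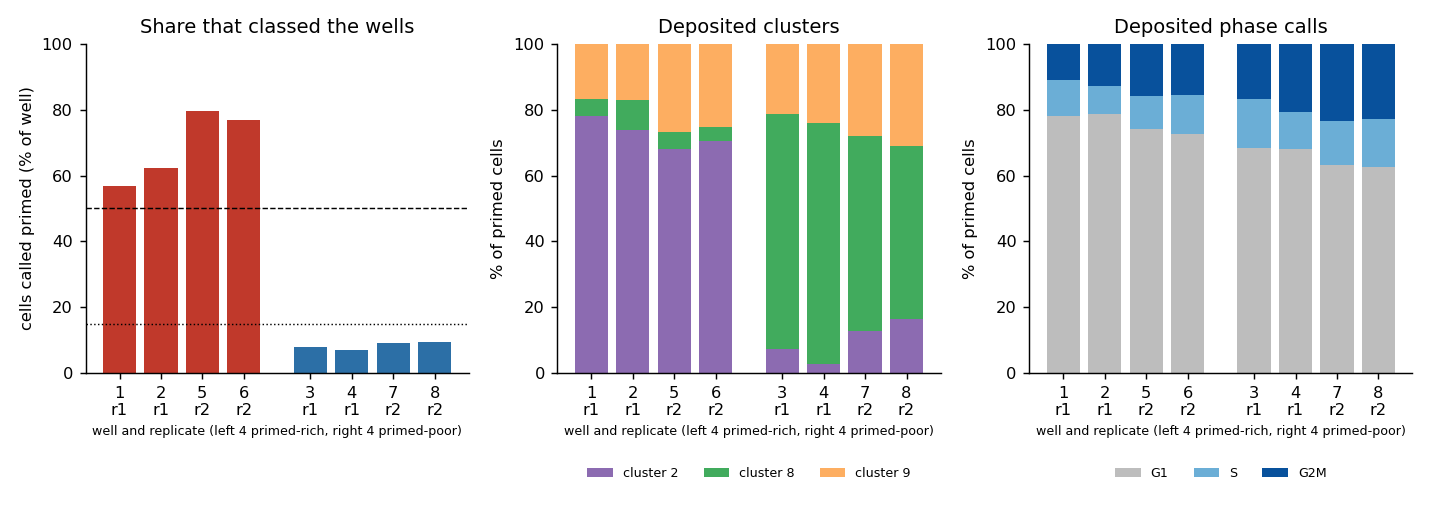
Percent of each well's cells that are called primed (left, with the limits of 50% and 15% as lines), percent of the primed cells in deposited clusters 2, 8 and 9 (middle) and percent in phases G1, S and G2M (right), by well and replicate. Cluster 2 makes up at least 68.0% of primed cells in the 4 primed-rich wells and at most 16.4% in the 4 primed-poor wells.

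The deposited cell cycle phases were compared over wells. Primed cells in G1 were 78.1%, 78.7%, 74.2% and 72.7% in primed-rich wells and 68.3%, 68.1%, 63.3% and 62.6% in primed-poor wells. Each primed-rich well was above each primed-poor well. The mean share was 75.9% ± 2.93 (SD, n = 4) against 65.5% ± 3.04 (SD, n = 4), a difference of 10.4 percentage points (two-sided exact permutation test over wells, p = 0.0286, 0.0429 after Benjamini-Hochberg adjustment over the 3 phases). The share in G2M was 13.7% ± 2.35 (SD, n = 4) in primed-rich and 20.9% ± 3.07 (SD, n = 4) in primed-poor wells (exact permutation p = 0.0286, adjusted 0.0429). In both cases p was the smallest that 4 wells against 4 can give when wells are permuted across replicates. With the classes permuted within each replicate, the exact permutation p was 0.0556 for each phase (adjusted 0.0556), the smallest that these 36 arrangements allow, so that neither share passed. The share in S, 10.4% against 13.6%, did not pass (exact permutation p = 0.0571, adjusted 0.0571). Within cluster 8, 84.6%, 78.9%, 88.2% and 84.2% of cells were in G1 in primed-rich and 84.4%, 86.5%, 82.8% and 86.7% in primed-poor wells, with an overlap. Within cluster 9, 60.5%, 64.1%, 55.2% and 59.3% of cells were in G2M against 70.4%, 69.8%, 67.3% and 64.2%. These shares within clusters were not tested. Cluster 9 was the cycling cluster of the state in both classes of wells.

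Levels of markers are described here and are no check of the label, which comes from clustering on the expression of these same cells. The authors named the clusters by markers that include EGFR, AXL, NT5E, SOX10 and MITF. NT5E, EGFR, AXL and NGFR were above their level in drug-susceptible cells of the same well in all 8 wells. SOX10, MITF, PMEL, MLANA and DCT were below it. TYRP1, weakly expressed in drug-susceptible cells, was at 137% of that level in well 1 and below it in the other wells. Some melanocyte genes were above it in every well, with OCA2 at 571% to 2545%, MLPH at 184% to 332% and PAX3 at 100% to 173%. BIRC7 was at 102% to 193% in primed-poor and at 61.4% to 78.4% in primed-rich wells. Markers of other cell types were counted in the primed cells as well. CD3E, CD2, MS4A1, FCGR3A and TYROBP of the 13 leukocyte markers had 0 UMIs in all primed cells, PTPRC had 4 in primed-rich and 1 in primed-poor wells, and the summed level of the list, between 71.8 and 140 CPM (counts scaled to a common library size) in primed-rich and between 46.0 and 112 CPM in primed-poor wells, was nearly all CD68. Of the 14 markers of fibroblasts, endothelium and epithelium KRT5 had 0 UMIs and EPCAM 1. The summed level of that list lay between 231 and 290 CPM in primed-rich and between 165 and 232 CPM in primed-poor wells. It was mostly KRT18, PDGFRA, KRT8, PECAM1, LUM (18.0 CPM on average in primed-rich and 13.8 CPM in primed-poor wells) and DCN (6.10 and 8.63 CPM), and the source of these transcripts was not tested.

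Counts of primed cells were summed per well and tested with edgeR with the replicate as a block. Of 13372 genes tested 1316 (9.84%) were higher and 1440 (10.8%) were lower in primed-rich wells at an adjusted p under 0.05. A change above 2-fold was found for 233 of the higher and 201 of the lower genes. With the 2 wells of each replicate and class added together, so that 2 sums stood against 2, 377 genes were higher (2.36% of those tested) and 360 lower (2.25%), and 357 and 346 of these were among the calls over 8 wells. Without the replicate as a block 189 were higher and 132 lower. Within r1 and within r2 the 2 primed-rich wells lay on the same side of the 2 primed-poor wells for 1212 of the 1316 higher and 1285 of the 1440 lower genes, and for 2018 and 1964 of all 13372 genes tested. The same comparison called 60 genes higher (0.535% of those tested) and 103 lower (0.919%) in cluster 8, where primed-rich wells held 13 to 95 cells. In cluster 9 it called 524 (4.90%) and 612 (5.72%). The counts of list members given below stand beside these shares of all genes in the same fit.

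The largest rise by the naming rule was that of WISP1. WISP1, a matricellular protein of the WNT pathway, had 56.0, 55.3, 40.9 and 37.5 CPM in primed-rich wells and 3.95, 3.01, 1.56 and 2.97 CPM in primed-poor wells. It rose 16.9-fold, a log2 fold change of 4.08 ± 0.12 (standard error; adjusted p = 6.8e-10). The naming rule asked for no overlap of the classes within either replicate and for a large change, so their separation is only a description. WISP1 reached the rule's mean of at least 10 CPM only through primed-rich wells, as did CPA4, NRG1, IFI27 and LMO2. It was also higher within cluster 8 (log2 2.83 ± 0.31, adjusted p = 0.000192) and within cluster 9 (3.70 ± 0.19, adjusted p = 7.36e-09), so its difference was present in primed cells of the same cluster. With primed cells thinned to 10000 UMIs each, a WISP1 UMI was found in 32.4%, 30.4%, 25.8% and 26.0% of them in primed-rich wells and in 2.38%, 2.28%, 3.06% and 4.09% in primed-poor wells.

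NRG1, a ligand of the ERBB3 and ERBB4 receptors, had 22.2, 27.5, 39.5 and 33.0 CPM against 2.47, 2.65, 3.23 and 5.04 CPM. This was a log2 rise of 3.21 ± 0.14 (adjusted p = 2.02e-08), and the rise was 2.70 ± 0.30 in cluster 8 (adjusted p = 0.000192) and 4.20 ± 0.29 in cluster 9 (adjusted p = 1.2e-07). The gene was at 0.49 to 0.97 CPM in the drug-susceptible cells of every well, with no such pattern. EREG, a ligand of EGFR, had 83.0, 86.7, 132 and 128 CPM against 2.63, 4.82, 17.5 and 44.5 CPM. Its log2 rise was 2.83 ± 0.34 (adjusted p = 0.000102), and r1 and r2 differed in both classes. Within cluster 8 EREG overlapped in r2, with 38.9 and 18.5 CPM in wells 5 and 6 against 14.1 and 20.4 CPM in wells 7 and 8. Within cluster 9 it did not overlap, with 95.9 and 129 CPM against 26.2 and 50.3 CPM in these wells. WNT5A, a non-canonical WNT ligand, had 55.1, 48.1, 72.4 and 72.5 CPM against 12.7, 10.7, 16.5 and 16.2 CPM. Its log2 rise was 2.15 ± 0.08 (adjusted p = 2.85e-09), and it passed in cluster 8 (1.47 ± 0.20, adjusted p = 0.00183) and cluster 9 (1.85 ± 0.12, adjusted p = 8.68e-08).

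CPA4, a secreted carboxypeptidase, had 14.1, 17.4, 70.3 and 53.7 CPM against 1.32, 1.69, 4.79 and 2.46 CPM. It differed between the replicates in both classes and rose by 3.88 ± 0.19 on the log2 scale (adjusted p = 5.43e-08). G0S2, an inhibitor of fat breakdown, had 288, 316, 159 and 147 CPM against 17.6, 12.2, 21.8 and 25.6 CPM. Its log2 rise was 3.46 ± 0.25 (adjusted p = 1.24e-06), with 4.01 ± 0.27 in cluster 9 (adjusted p = 1.2e-07) and 1.86 ± 0.48 in cluster 8, where it did not pass (adjusted p = 0.0682). LMO2, a transcriptional adaptor best known from blood cells, had 29.9, 23.6, 14.9 and 15.6 CPM against 2.63, 6.27, 1.46 and 2.20 CPM, a log2 rise of 2.73 ± 0.19 (adjusted p = 1.01e-06). In cluster 8 LMO2 had 13.6, 13.7, 0 and 5.14 CPM against 1.22, 7.18, 0.54 and 1.02 CPM, with an overlap in r2. In cluster 9 it had 12.6, 15.9, 7.93 and 4.36 CPM against 1.27, 2.69, 2.44 and 4.03 CPM.

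**Figure D2:**
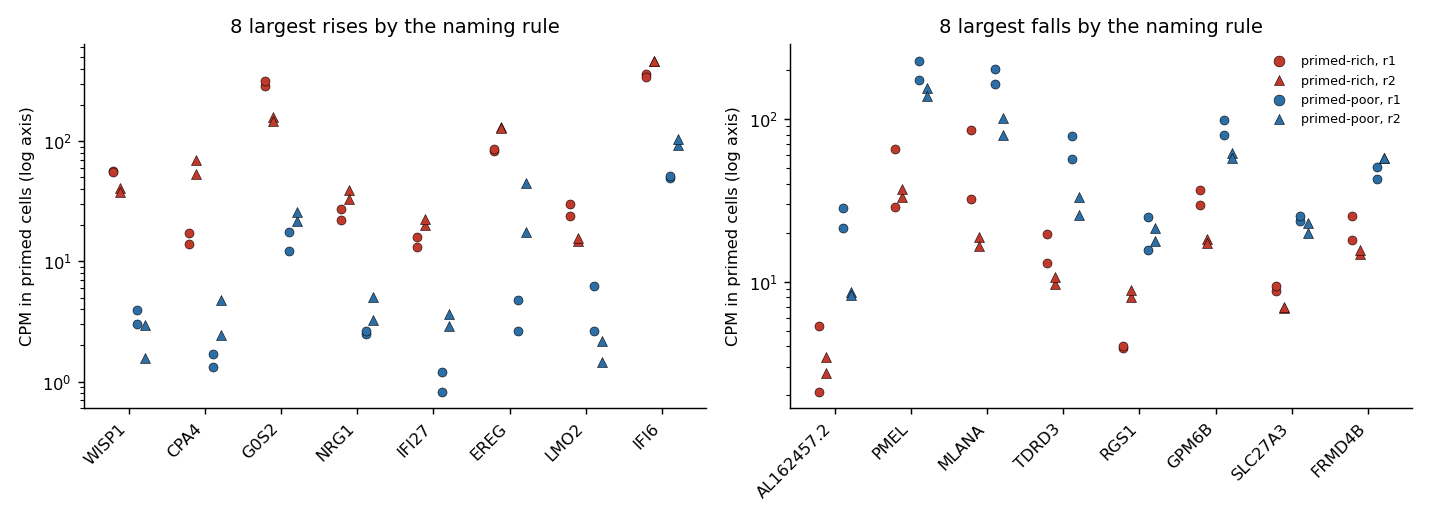
Level in primed cells (CPM, log axis) of the 8 genes with the largest rises (left) and the 8 with the largest falls (right) by the naming rule, with a point per well, red for primed-rich, blue for primed-poor, circles for r1 and triangles for r2. For WISP1 the primed-rich wells sit between 37.5 and 56.0 CPM and the primed-poor wells between 1.56 and 3.95 CPM.

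Interferon-stimulated genes were higher in primed-rich wells as a group. Of 29 tested members of a list of 30, 23 were higher and 0 lower, against 9.84% and 10.8% of all genes (6 did not pass edgeR's adjusted p, and 20 were higher and 0 lower in the sums of 2 against 2). The median log2 fold change of the list was 1.02 beside 0.00 over all genes tested. IFI6, an interferon-induced mitochondrial protein, had 363, 338, 460 and 467 CPM in primed-rich and 49.7, 51.5, 92.2 and 103 CPM in primed-poor wells. The log2 rise was 2.50 ± 0.10 (adjusted p = 7.27e-09). It passed also in cluster 8 (1.97 ± 0.17, adjusted p = 5.07e-05) and in cluster 9 (2.23 ± 0.11, adjusted p = 4.25e-09).

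IFI27, of the same gene family, had 15.9, 13.2, 19.98 and 22.4 CPM against 0.82, 1.21, 2.92 and 3.62 CPM, a log2 rise of 3.04 ± 0.18 (adjusted p = 2.26e-07). In cluster 8 IFI27 had 2.46, 13.1, 1.07 and 4.11 CPM against 0.98, 1.17, 2.68 and 2.81 CPM, with an overlap in r2. In cluster 9 it had 6.01, 8.82, 29.4 and 14.5 CPM against 0.64, 1.35, 4.19 and 4.43 CPM. IRF9, the DNA-binding part of the interferon-activated complex, had 34.3, 34.9, 11.9 and 12.96 CPM against 7.07, 6.39, 5.31 and 5.17 CPM. It rose by 1.86 ± 0.17 on the log2 scale (adjusted p = 1.03e-05), and the level in r1 primed-rich wells was above that in r2. IRF9 passed in both clusters, with a log2 value of 1.51 in cluster 8 and 1.82 in cluster 9. Within cluster 8, 8 of 27 tested members were higher and 0 lower, and within cluster 9, 12 of 26 were higher and 0 lower. The members did not move by the same amount. ISG15, a ubiquitin-like modifier, had 262, 387, 302 and 406 CPM against 243, 214, 150 and 311 CPM, so that its classes overlapped, with a log2 value of 0.57 ± 0.18 (adjusted p = 0.0449).

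The ISRE core was searched as GAAA, any 2 bases and GAAA again on both strands of promoters that reach from 250 bases before to 50 bases after the RefSeq gene start (GRCh38.p14). The letters were found in 16 of the 22 list members that have a promoter in the table, 13 of the 19 such members that were higher, and in 4.38% of the 27305 genes of the table, counted per gene over any of its promoters, or 3.57% of all 35116 promoters of this length. Overlapping matches were counted as found, and a match is a description of the letters and not a bound site. The list holds genes already known as interferon-stimulated, so this excess describes the list and not the wells. The letters were not more frequent among the members that were higher. The windows below are shown because these genes span the range of the rises, from IFI27 to ISG15, with the matched letters in capitals, 5′ to 3′ on the strand of the match.
IFI6, chr1:27672290-27672315, minus strand: agagagggGAAAATGAAActgcagag
IFI27, chr14:94110620-94110645, minus strand: ttttccagGAAACCGAAActgcagac
IFIT1, chr10:89392499-89392524, minus strand: cgaaagggGAAAGTGAAActaaagct
BST2, chr19:17405743-17405768, minus strand: ctttctggGAAACTGAAActgaaaac
ISG15, chr1:1013382-1013407, plus strand: gggaaaggGAAACCGAAActgaagcc
All 5 windows lie before the RefSeq start of the promoter searched, at 115 bases for IFI6 and 107 bases for ISG15. For IFI27 that start lies within the gene as annotated elsewhere, where it begins at chr14:94104836 on the plus strand. IFIT1, an RNA-binding antiviral protein, had 43.2, 40.4, 37.8 and 50.02 CPM against 15.6, 10.2, 5.63 and 26.6 CPM (log2 1.60 ± 0.28, adjusted p = 0.00129). BST2, a surface protein that tethers budding viruses, had 40.7, 43.96, 59.4 and 53.0 CPM against 22.9, 16.9, 15.5 and 25.1 CPM (log2 1.31 ± 0.13, adjusted p = 2.14e-05). No primed-rich well overlapped a primed-poor well for either gene.

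The drug-susceptible cells of the same wells showed the interferon difference too. On a scale common to both states, the summed level of the 30 genes was 1547, 1654, 1757 and 1886 CPM in primed cells of primed-rich wells and 791, 731, 638 and 1004 CPM in those of primed-poor wells. In drug-susceptible cells it was 795, 927, 1126 and 1093 CPM against 585, 612, 496 and 486 CPM. Neither state had an overlap between the classes. For IFI6 drug-susceptible cells had 154, 166, 391 and 347 CPM against 70.6, 67.5, 75.8 and 75.3 CPM. The test of the difference between the states, fitted on the 16 sums of 8 wells and 2 states, called 348 of 15311 genes higher (2.27%) and 570 lower (3.72%) in the primed cells' contrast. Of the interferon list it called 3 of 29, IFI27 among them. IFI27 changed more in primed cells (log2 difference 1.63 ± 0.24, adjusted p = 0.00298), and IFITM3 changed less (-0.34). IFI6 did not pass this test (0.75 ± 0.25, adjusted p = 0.0928). When the 2 wells of a replicate and class were added together, edgeR called 0 genes for the difference of the states, with 1636 genes at an unadjusted p under 0.05.

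**Figure D3:**
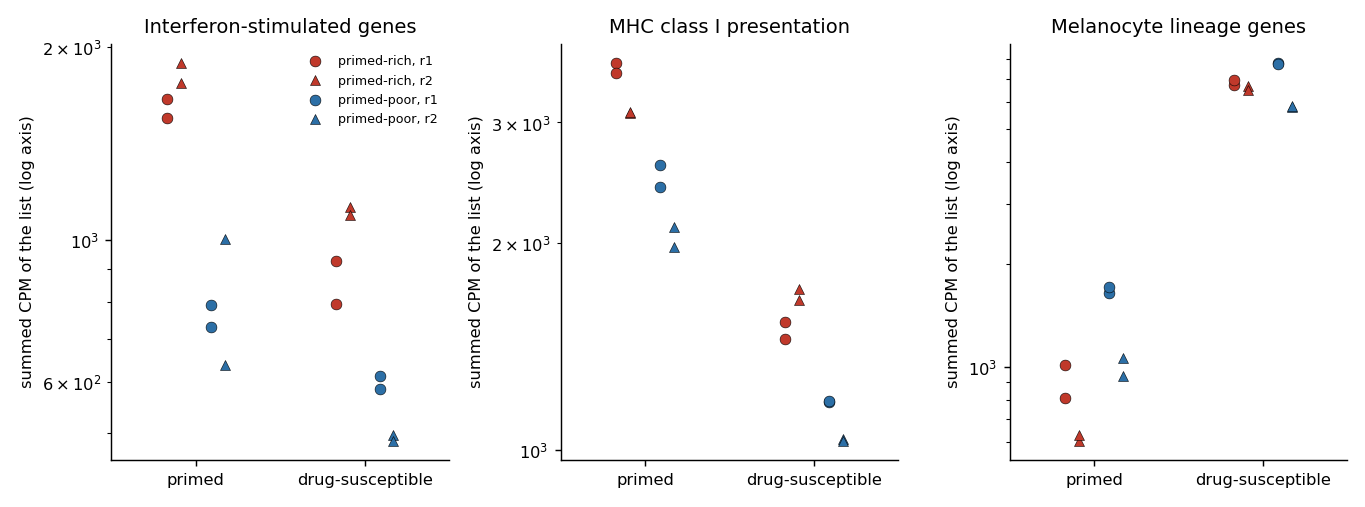
Summed level (CPM, log axis) of the interferon-stimulated, MHC class I and melanocyte lists in primed and in drug-susceptible cells, with a point per well, red for primed-rich, blue for primed-poor, circles for r1 and triangles for r2. Interferon-stimulated genes reach 1547 to 1886 CPM in primed cells of primed-rich wells and 638 to 1004 CPM in those of primed-poor wells, and the classes are also apart in drug-susceptible cells.

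Genes of MHC class I presentation, which display peptides on the cell surface, followed the same direction with smaller changes. Of 12 tested members 7 were higher and 0 lower (5 and 0 in the sums of 2 against 2), with a median log2 value of 0.50. HLA-C had 413, 372, 363 and 356 CPM against 251, 221, 218 and 216 CPM (log2 0.73 ± 0.06, adjusted p = 7.74e-06), and HLA-B 215, 195, 202 and 201 CPM against 142, 132, 92.8 and 117 CPM (0.76 ± 0.09, adjusted p = 8.73e-05). NLRC5, the transcriptional activator of these genes, had 19.0, 18.4, 14.8 and 15.4 CPM against 9.38, 7.59, 9.27 and 7.37 CPM (0.99 ± 0.11, adjusted p = 3.4e-05). No well of a class overlapped the other class for these 3 genes. In cluster 8 none of the 12 passed and their median was 0.09, in cluster 9 4 passed and the median was 0.24. HLA genes are near-identical in parts, so counts may have been split or shared among them.

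Melanocyte lineage genes were lower in primed-rich wells. Of 24 tested members of a list of 25, 17 were lower and 1 was higher (13 and 0 in the sums of 2 against 2), with a median log2 value of -0.83. PMEL, which forms the fibrils of melanosomes, had 28.7, 65.0, 32.9 and 37.3 CPM in primed-rich and 172, 228, 154 and 139 CPM in primed-poor wells. It fell by 2.06 ± 0.18 on the log2 scale (adjusted p = 7.92e-06). MLANA, a melanosomal membrane protein, had 32.4, 85.6, 18.7 and 16.5 CPM against 164, 201, 101 and 79.5 CPM and fell by 1.96 ± 0.24 (adjusted p = 0.000107). Its highest primed-rich well, well 2, was above its lowest primed-poor well, well 8, but not above the primed-poor wells of its own replicate. MITF had 36.0, 42.9, 31.9 and 34.8 CPM against 96.7, 111, 72.3 and 70.2 CPM, a fall of 1.25 ± 0.09 (adjusted p = 8.92e-07). SOX10 had 3.71, 9.98, 2.44 and 3.34 CPM against 18.8, 16.03, 14.2 and 10.1 CPM and fell by 1.60 ± 0.26 (adjusted p = 0.000966). The member that rose, OCA2, was at 3.45 CPM on average.

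The M-box, TCATGTG, a letter pattern known as a target of MITF, was searched in the same promoters and on both strands. It was found in 5 of the 19 list members with a promoter in the table and in 3.59% of all genes of the table, or 2.92% of all promoters. The list holds known melanocyte genes, so this excess too describes the list and not the wells. Windows of the pigment enzymes TYR and DCT are shown because both were among the lower members, with the matched letters in capitals.
TYR, chr11:89177762-89177784, plus strand: aaagtcagTCATGTGcttttcag
DCT, chr13:94479803-94479825, minus strand: actttgggTCATGTGctaatgat
TYR had 2.21, 4.53, 1.502 and 2.17 CPM against 6.42, 9.52, 9.48 and 12.5 CPM (log2 -1.85 ± 0.29, adjusted p = 0.000655). DCT had 15.4, 24.2, 9.71 and 11.5 CPM against 17.6, 31.0, 45.1 and 36.2 CPM (log2 -1.15 ± 0.28, adjusted p = 0.0115), with an overlap between well 2 and well 3.

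Melanocyte genes were also read within the clusters. In cluster 9 PMEL had 21.0, 32.0, 27.0 and 32.8 CPM against 142, 127, 102 and 143 CPM, a fall of 2.13 ± 0.13 (adjusted p = 5.06e-08). In cluster 8 it had 116, 361, 103 and 166 CPM against 196, 264, 191 and 141 CPM, with overlapping wells and a log2 value of -0.08 ± 0.25 (adjusted p = 0.921). MLANA fell by 2.53 ± 0.19 in cluster 9 (adjusted p = 3.98e-07) and had a log2 value of 0.58 ± 0.24 in cluster 8 (adjusted p = 0.258). Over the list, 11 of 18 tested members were lower in cluster 9 and 1 of 21 in cluster 8, where 1, DCT, was higher. Whether the 2 clusters differ in this change was not tested.

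Drug-susceptible cells were the majority in primed-poor wells, and RNA from them in the droplets of primed cells would carry these genes. For the comparison of both kinds of cell within a well, CPM were taken without TMM scaling, unlike the levels given with the tests. On this scale drug-susceptible cells had at least 1697 CPM of PMEL in every well. The level of PMEL in primed cells was 1.45%, 3.52%, 1.49% and 1.80% of that in the drug-susceptible cells of the same primed-rich well and 6.13%, 8.69%, 8.57% and 7.80% in primed-poor wells. For MLANA it was 1.83%, 4.30%, 1.59% and 1.36% against 8.06%, 9.60%, 7.33% and 5.91%, and for RLBP1, a retinoid-binding protein, 0.568%, 3.81%, 1.49% and 1.04% against 3.55%, 7.14%, 4.85% and 4.73%. For MITF it was higher throughout, 11.3%, 14.7%, 12.2% and 12.4% against 29.5%, 33.2%, 21.9% and 21.3%. The 10% of primed cells with most PMEL UMIs held 55.0% to 65.6% of them in primed-poor wells. In primed-rich wells they held 68.4% and 80.2% in r1 but 36.9% and 36.8% in r2. After thinning, 15.2%, 19.1%, 30.2% and 28.2% of primed cells had a PMEL UMI in primed-rich wells. In primed-poor wells 59.5%, 53.6%, 63.3% and 60.2% of them had such a UMI. The part that free RNA or mixed droplets have in the fall of these genes was not tested.

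Further large falls concerned genes outside the list. GPM6B, a membrane glycoprotein of neural and pigment cells, had 29.4, 36.5, 18.2 and 17.4 CPM against 98.2, 79.7, 61.6 and 57.2 CPM (log2 -1.57 ± 0.10, adjusted p = 3.62e-07). TDRD3, a Tudor domain protein, had 12.95, 19.7, 9.63 and 10.7 CPM against 77.8, 56.4, 33.0 and 25.5 CPM (log2 -1.77 ± 0.15, adjusted p = 5.13e-06). FRMD4B, a scaffold protein, had 17.9, 25.3, 14.9 and 15.6 CPM against 42.9, 50.6, 57.7 and 57.8 CPM (log2 -1.52 ± 0.15, adjusted p = 2.06e-05). All 3 passed in cluster 9 and not in cluster 8. The RNA AL162457.2, of which the annotation used here gives no entry by that name, fell by 2.07 ± 0.26 (adjusted p = 0.000114), between 2.10 and 5.31 CPM in primed-rich and between 8.28 and 28.1 CPM in primed-poor wells. SLC27A3, of the fatty acid transporter family, fell by 1.52 ± 0.08 (adjusted p = 1.5e-07) and passed in cluster 8 (-1.18 ± 0.23, adjusted p = 0.016) and cluster 9 (-1.61 ± 0.21, adjusted p = 0.000157). RGS1, a regulator of G protein signalling, had 3.93, 4.01, 8.10 and 8.89 CPM against 24.8, 15.5, 17.8 and 21.5 CPM (log2 -1.69 ± 0.20, adjusted p = 8.64e-05). Drug-susceptible cells had 1.34 to 3.46 CPM of RGS1, below the level in primed cells of the same well.

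**Figure D4:**
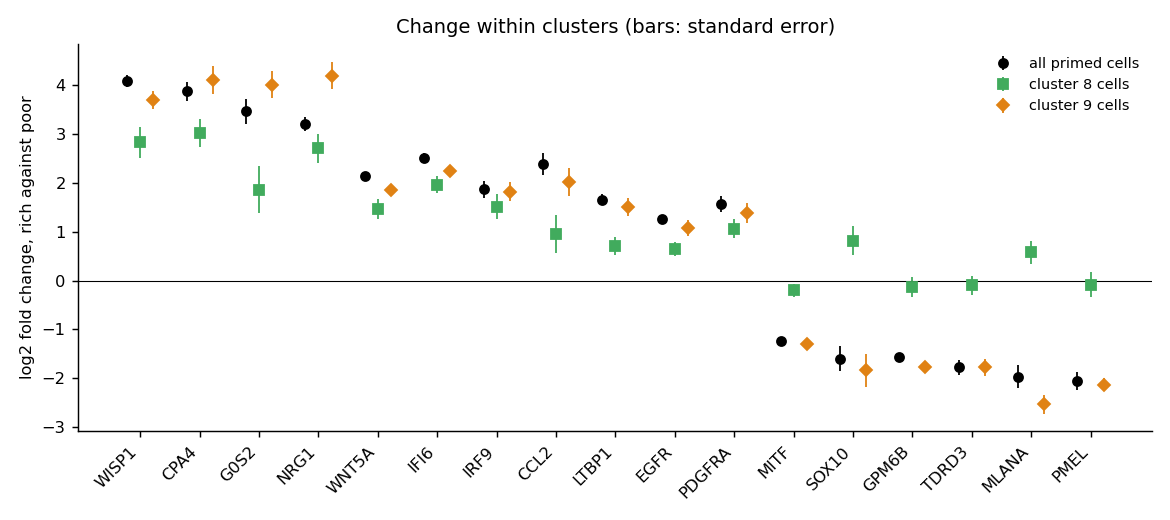
Log2 fold change of primed-rich against primed-poor wells (vertical axis, bars are standard errors) for 17 genes in all primed cells, in cluster 8 cells and in cluster 9 cells. Rises such as those of WISP1, NRG1 and IFI6 are present in each of the 3 fits, while PMEL has -2.06 over all primed cells, -2.13 in cluster 9 and -0.08 in cluster 8.

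The markers used to sort and name primed cells did not move together. EGFR had 54.9, 54.9, 52.1 and 49.6 CPM in primed-rich and 28.3, 26.3, 17.8 and 18.0 CPM in primed-poor wells. It rose by 1.25 ± 0.09 (adjusted p = 1.68e-06), and by 0.64 ± 0.15 in cluster 8 (adjusted p = 0.0452) and 1.07 ± 0.17 in cluster 9 (adjusted p = 0.000611). Part of the cultures had been sorted for high EGFR, and which wells these were is not in the cell labels, so the sort and the class cannot be told apart. After thinning, an EGFR UMI was found in 43.0%, 39.5%, 42.8% and 35.6% of primed cells in primed-rich wells and in 20.6%, 19.0%, 19.9% and 12.9% in primed-poor wells. NGFR, the other sort marker, had 34.9, 29.1, 23.6 and 28.6 CPM against 31.8, 33.3, 40.0 and 42.9 CPM. Its log2 value was -0.37 ± 0.12 (adjusted p = 0.0483), with an overlap in r1, and it did not pass in the sums of 2 against 2 (adjusted p = 0.207). NT5E had 157, 161, 217 and 228 CPM against 179, 177, 209 and 214 CPM (log2 -0.04 ± 0.07, adjusted p = 0.692), and AXL 28.3, 25.1, 56.4 and 60.0 CPM against 31.8, 23.6, 45.6 and 39.7 CPM (0.23 ± 0.11, adjusted p = 0.169). For both the replicates were further apart than the classes.

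Of 20 further genes known from the primed state 7 were higher and 1, VGF, was lower, beside 9.84% and 10.8% of all genes. The median log2 value was 0.18, and the sums of 2 against 2 had 6 higher and 0 lower. Within cluster 8 2 were higher and 3 lower, beside 0.535% and 0.919% of all genes there, with a median of -0.11. In cluster 9 7 were higher and 2 lower, beside 4.90% and 5.72% of all genes there, with a median of 0.08. The list was also summed on the scale common to both states. In primed cells it had 6282, 5325, 7790 and 7458 CPM against 6730, 5976, 5888 and 6207 CPM, with an overlap. In drug-susceptible cells it had 1846, 1848, 1484 and 1398 CPM against 1189, 984, 1116 and 1135 CPM, with no overlap. The test of the difference between the states called 9 of 20 members, beside 2.27% of all genes higher and 3.72% lower. Beside NRG1 and WNT5A the genes higher over all primed cells included BDNF, a neurotrophin, with 41.3, 41.04, 31.6 and 32.1 CPM against 21.2, 22.7, 13.9 and 15.6 CPM (log2 1.01 ± 0.08, adjusted p = 1.68e-06). Its log2 value was 0.15 ± 0.17 in cluster 8 (adjusted p = 0.714) and 0.79 ± 0.14 in cluster 9 (adjusted p = 0.00204). BDNF changed less in primed than in drug-susceptible cells (log2 difference -2.29 ± 0.32, adjusted p = 0.0022), where it had 1.43, 1.26, 1.79 and 0.44 CPM against 0.11 to 0.12 CPM. These drug-susceptible levels were near the floor and far below those in primed cells. The part that free RNA of primed cells or mixed droplets have in them was not tested. FN1 and SERPINE2, an abundant matrix protein and a protease inhibitor of the state, had log2 values of 0.28 and -0.04 and did not pass.

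Inflammatory cytokines and chemokines gave 6 higher and 1 lower of 18 tested, beside 9.84% and 10.8% of all genes. The sums of 2 against 2 also had 6 higher and 1 lower, and the median was 0.32. In cluster 8 none passed (median 0.21), and in cluster 9 3 were higher (median 0.19). CCL2, which attracts monocytes, had 127, 140, 134 and 145 CPM against 13.3, 18.6, 25.3 and 50.7 CPM and rose by 2.39 ± 0.22 (adjusted p = 1.13e-05). It rose by 2.01 ± 0.29 in cluster 9 (adjusted p = 0.000328) and had 0.95 ± 0.38 in cluster 8 (adjusted p = 0.244). LIF, a cytokine of the IL6 family, had 13.7, 13.3, 34.8 and 26.5 CPM against 6.25, 3.25, 11.4 and 17.8 CPM (log2 1.24 ± 0.17, adjusted p = 0.000248). CXCL8 was the lower member and rests on 1 well. It had 1.33, 3.58, 11.7 and 11.3 CPM against 1.32, 5.54, 94.7 and 9.70 CPM, and in well 7 a single cell held 721 of the 909 CXCL8 UMIs. Its log2 value of -1.77 ± 0.56 (adjusted p = 0.0397) became -0.03 without well 7 (adjusted p = 0.966), and without the 10% deepest primed cells it was 0.995 (adjusted p = 0.0108), in the other direction.

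The TGF-beta pathway, which the primed state has been linked to, gave 6 higher and 1 lower of 21 tested, beside 9.84% and 10.8% of all genes. The median was 0.15, and the sums of 2 against 2 had 3 higher and 1 lower. In cluster 8 none passed, and in cluster 9 2 were higher and 4 lower, with a median of -0.03. The list was also summed on the scale common to both states. In primed cells it had 731, 747, 750 and 730 CPM against 757, 672, 552 and 551 CPM, with an overlap. In drug-susceptible cells it had 416, 411, 461 and 491 CPM against 275, 262, 313 and 317 CPM, with no overlap. The test of the difference between the states called 6 of 21 members, beside 2.27% of all genes higher and 3.72% lower. LTBP1, which stores latent TGF-beta in the matrix, had 80.4, 76.4, 87.8 and 89.3 CPM against 24.2, 34.5, 24.2 and 23.3 CPM (log2 1.65 ± 0.11, adjusted p = 8.02e-07). The receptor TGFBR1 had 169, 162, 194 and 202 CPM against 129, 118, 116 and 122 CPM (0.58 ± 0.07, adjusted p = 0.000131), with -0.35 in cluster 8, 0.22 in cluster 9 and 0.54 in cluster 2, none of which passed. The ligand TGFB1 also passed with a log2 value of 0.34, and INHBA, the subunit of activin A, with 1.58. The lower member was ID1, a direct target of BMP signalling, with 3.27, 9.79, 8.72 and 7.26 CPM against 52.0, 42.8, 15.3 and 6.21 CPM (log2 -1.71 ± 0.40, adjusted p = 0.00902). Its r2 wells overlapped, and in well 7 a single cell held 61 of 147 ID1 UMIs.

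Collagens and matrix genes gave 8 higher and 3 lower of 21 tested, beside 9.84% and 10.8% of all genes, the lower share being near the latter. The median was 0.25 over all primed cells, -0.45 in cluster 8 and 0.00 in cluster 9 (7 higher and 2 lower in the sums of 2 against 2). TIMP3, an inhibitor of matrix proteases, had 2134, 1931, 2119 and 2197 CPM against 964, 884, 1175 and 1402 CPM (log2 0.94 ± 0.09, adjusted p = 1.86e-05), with -0.15 in cluster 8, 0.65 in cluster 9 and 0.68 in cluster 2, of which the latter pair passed. BGN, a proteoglycan, had 246, 219, 127 and 137 CPM against 90.8, 101, 86.6 and 92.1 CPM (0.92 ± 0.12, adjusted p = 0.000173), and COL5A2, a fibrillar collagen, 13.5, 17.7, 23.5 and 22.7 CPM against 7.73, 7.95, 13.9 and 16.3 CPM (0.78 ± 0.12, adjusted p = 0.000467). Within clusters BGN had -0.36 in cluster 8, 0.57 in cluster 9 and 0.57 in cluster 2, of which the last passed. The lower members were COL1A2, COL6A3 and SPARC, with log2 values of -2.01, -1.19 and -0.31. In cluster 8 COL1A2 (-2.89) and COL6A3 (-2.22) also passed, together with COL6A1, COL6A2, DCN and TIMP1, all lower, although COL6A1 and COL6A2 were higher over all primed cells. Integrins and adhesion molecules gave 6 higher and 2 lower of 18 tested, the latter near the 10.8% of all genes, and 3 and 0 in the sums of 2 against 2. In cluster 8 none of 17 passed, with a median of -0.15, and in cluster 9 3 were higher and 1 lower. ITGA2, a collagen receptor subunit, had 92.0, 84.4, 144 and 141 CPM against 63.3, 64.2, 34.9 and 51.9 CPM (1.09 ± 0.20, adjusted p = 0.00187), with -0.24 in cluster 8, 0.66 in cluster 9 and 0.91 in cluster 2, of which the last passed. ITGB8, which activates latent TGF-beta, rose by 1.06 ± 0.13 (adjusted p = 0.000126). ITGA6, a laminin receptor subunit, had -0.75 ± 0.16 (adjusted p = 0.00597) and did not pass in the sums of 2 against 2 (adjusted p = 0.0601).

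Members of the lists of other cell types and of neural crest genes were called in both directions. PDGFRA, a growth factor receptor of mesenchymal cells, had 48.9, 44.1, 58.1 and 59.2 CPM against 11.2, 9.52, 28.4 and 23.9 CPM. It rose by 1.57 ± 0.16 (adjusted p = 1.98e-05) and passed in cluster 8 (1.06 ± 0.20, adjusted p = 0.0133) and in cluster 9 (1.38 ± 0.20, adjusted p = 0.000328). Of 8 tested markers of fibroblasts, endothelium and epithelium PDGFRA, PECAM1 (0.58 ± 0.09, adjusted p = 0.000422) and KRT8 (0.25 ± 0.07, adjusted p = 0.0222) were higher and COL1A2 was lower. Within clusters PECAM1 had -0.61 in cluster 8 and -0.0069 in cluster 2, neither of which passed. In cluster 9 it had 36.0, 31.8, 25.4 and 28.9 CPM against 17.8, 15.3, 24.1 and 15.7 CPM. CD68 was the only leukocyte marker abundant enough to test and was higher (0.46 ± 0.09, adjusted p = 0.00357). Of 10 tested neural crest and glial genes 2 were higher and 5 lower, beside 9.84% and 10.8% of all genes. The sums of 2 against 2 had 1 higher and 1 lower, cluster 8 none of 7, and cluster 9 1 higher and 3 lower. ZEB1, a transcription factor of epithelial-mesenchymal transition, had 20.8, 17.4, 16.5 and 14.0 CPM against 10.53, 10.1, 10.0 and 6.85 CPM (0.85 ± 0.12, adjusted p = 0.000269), whereas SOX4 fell by 0.52 ± 0.10 (adjusted p = 0.00237).

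**Figure D5:**
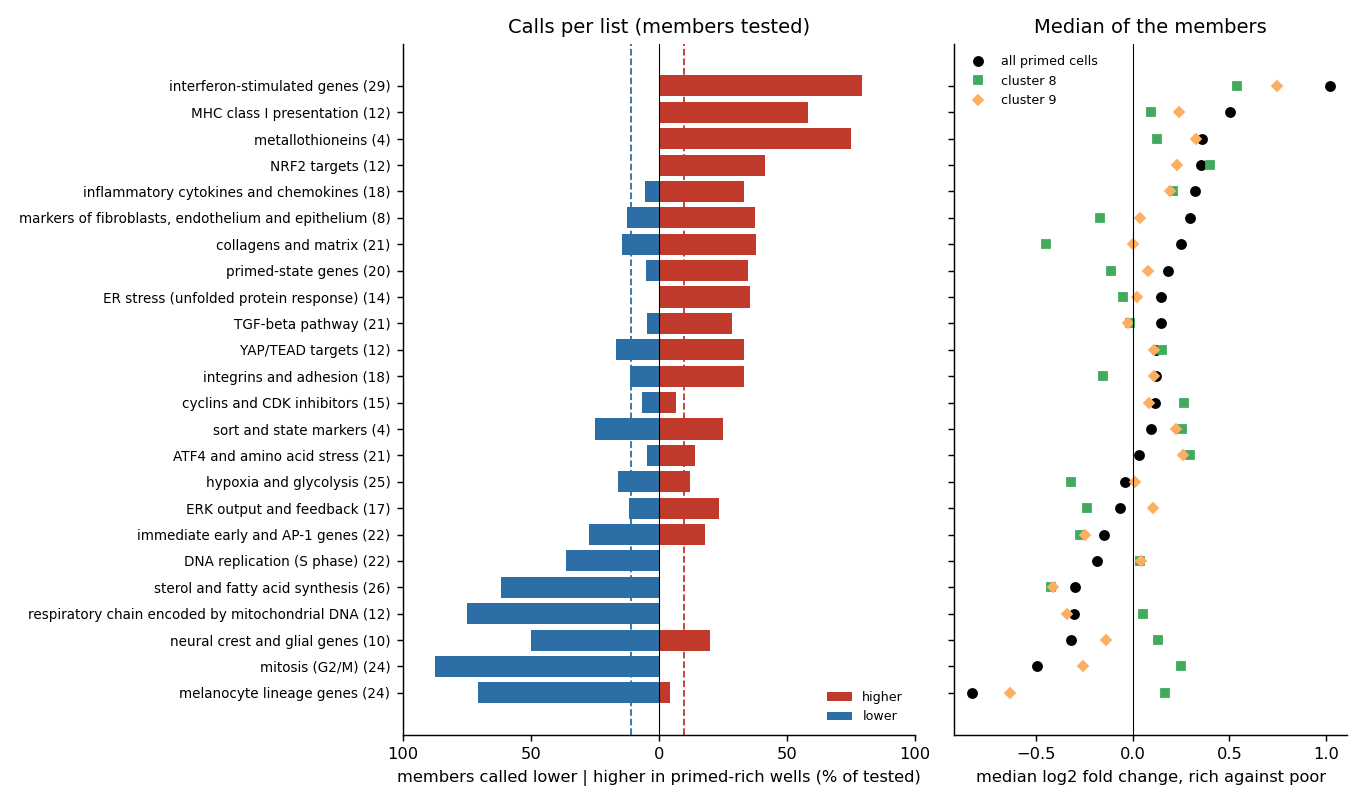
Percent of tested members called higher (red, to the right) or lower (blue, to the left) in primed-rich wells for 24 lists, with dashed lines at 9.84% and 10.8% for all genes (left), and the median log2 fold change of the members in all primed cells, in cluster 8 and in cluster 9 (right). Interferon-stimulated genes have a median of 1.02 and melanocyte genes of -0.83 over all primed cells.

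Of 24 tested mitosis genes 21 were lower in primed-rich wells and 0 higher (10 and 0 in the sums of 2 against 2), with a median of -0.50 over all primed cells, 0.25 in cluster 8, where none passed, and -0.26 in cluster 9, where 10 were lower. The difference in the G2M share, given above, had p = 0.0556 in the exact test with classes permuted within replicate, the smallest p which that test allows. The phases are calls from the expression of these same cells, so that share and the mitosis genes are not separate evidence. CCNB1, the cyclin of mitotic entry, had 47.5, 54.4, 85.1 and 76.4 CPM against 134, 132, 92.3 and 94.4 CPM (log2 -0.79 ± 0.18, adjusted p = 0.00674). HMMR and CCNB2 fell by 0.77 ± 0.17 (adjusted p = 0.00741) and 0.69 ± 0.11 (adjusted p = 0.000984). For these 3 genes the classes were further apart in r1 than in r2. Of 22 S phase genes 8 were lower and 0 higher, among them CDT1 (-0.44 ± 0.11, adjusted p = 0.0113) and MCM7 (-0.43 ± 0.11, adjusted p = 0.0119), and none passed in the sums of 2 against 2 or in either cluster. Of 15 cyclins, kinases and inhibitors 1 was higher and 1 lower, shares no higher than the 9.84% and 10.8% of all genes. CDKN2C, an inhibitor of CDK4 and CDK6, had 59.9, 61.5, 40.4 and 38.9 CPM against 29.4, 25.2, 25.0004 and 27.8 CPM (0.87 ± 0.11, adjusted p = 9.73e-05), and CDK6 fell by 0.53 ± 0.08 (adjusted p = 0.000564).

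Of 26 tested genes of sterol and fatty acid synthesis 16 were lower and 0 higher, with a median of -0.30, and 2 were lower in the sums of 2 against 2. MVD, of the mevalonate pathway, had 16.8, 20.2, 8.07 and 8.89 CPM against 38.2, 39.8, 11.8 and 9.96 CPM (log2 -0.77 ± 0.13, adjusted p = 0.0011). HMGCS1, of the same pathway, fell by 0.58 ± 0.13 (adjusted p = 0.00654). The difference was larger in r1 than in r2 for both genes. In cluster 8 4 of 26 and in cluster 9 13 of 26 members were lower, with medians of -0.42 and -0.41, and no member passed the test of the difference between the states. Of 12 genes of the respiratory chain encoded by mitochondrial DNA 9 were lower and 0 higher, with a median of -0.30, but 1 was lower in the sums of 2 against 2. In cluster 8 none of them passed and the median was 0.05, and in cluster 9 7 were lower, with a median of -0.34. MT-CYB had 6248, 7857, 4117 and 4396 CPM against 10654, 12470, 6918 and 6578 CPM (-0.69 ± 0.09, adjusted p = 0.000155), and MT-CO3 and MT-ND3 fell by 0.42 ± 0.08 (adjusted p = 0.00285) and 0.39 ± 0.10 (adjusted p = 0.0117). The median percent of mitochondrial reads per primed cell was 7.57%, 8.20%, 6.85% and 6.95% against 9.77%, 10.2%, 7.85% and 7.74%.

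Of 12 NRF2 targets 5 were higher and 0 lower (2 and 0 in the sums of 2 against 2), including GCLM, for glutathione synthesis (log2 0.86 ± 0.14, adjusted p = 0.000749), and NQO1, a quinone reductase (0.64 ± 0.09, adjusted p = 0.000374). The cystine transporter SLC7A11 (0.74 ± 0.20, adjusted p = 0.0204) belongs to this list and to that of ATF4 targets, and its wells overlapped in r1. Of 21 ATF4 and amino acid stress genes 3 were higher and 1 lower, near the 9.84% and 10.8% of all genes, and none in the sums of 2 against 2, with CEBPB at 0.40 ± 0.08 (adjusted p = 0.00348) and NUPR1 at -0.21 ± 0.06 (adjusted p = 0.0252). Of 14 genes of the unfolded protein response 5 were higher and 0 lower (1 and 0 in the sums of 2 against 2), such as DNAJC3 (0.55 ± 0.08, adjusted p = 0.00044), HYOU1 (0.46 ± 0.09, adjusted p = 0.00265) and DNAJB9 (0.41 ± 0.09, adjusted p = 0.00696). Of 4 tested metallothioneins, which bind metal ions, 3 were higher (2 in the sums of 2 against 2), with MT1X at 0.45 ± 0.07 (adjusted p = 0.000516), MT2A at 0.27 ± 0.08 (adjusted p = 0.0328) and the weakly expressed MT1E at 4.52.

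Of 25 hypoxia and glycolysis genes 3 were higher and 4 lower, near the 9.84% and 10.8% of all genes, and 2 and 0 in the sums of 2 against 2. VEGFA, the angiogenic factor, had 267, 224, 309 and 290 CPM against 164, 138, 199 and 196 CPM (log2 0.65 ± 0.08, adjusted p = 7.91e-05). Within clusters VEGFA passed in cluster 9 (0.69) and had -0.01 in cluster 8 and -0.06 in cluster 2. ADM rose by 0.51 ± 0.07 (adjusted p = 0.00034) and PFKFB4 fell by 0.49 ± 0.11 (adjusted p = 0.00553). Of 22 immediate early and AP-1 genes 4 were higher and 6 lower, and 0 and 4 in the sums of 2 against 2, with EGR1 at -0.94 ± 0.17 (adjusted p = 0.00146), KLF6 at -0.56 ± 0.07 (adjusted p = 0.000176) and the heat shock gene DNAJB1 at -0.52 ± 0.16 (adjusted p = 0.0351). JUN, listed with the primed-state genes, was higher (0.77, adjusted p = 4.18e-05). Of 17 ERK output and feedback genes 4 were higher and 2 lower, the latter near the 10.8% of all genes, and 0 and 2 in the sums of 2 against 2, with ETV4 at -0.55 ± 0.06 (adjusted p = 3.87e-05), SPRY2 at -0.48 ± 0.14 (adjusted p = 0.0309) and ERRFI1 at 0.34 ± 0.08 (adjusted p = 0.0109). Of 12 YAP/TEAD targets 4 were higher and 2 lower, and 1 and 1 in the sums of 2 against 2, with CRIM1 at 0.57 ± 0.08 (adjusted p = 0.000178), ARHGEF17 at -0.55 ± 0.08 (adjusted p = 0.000435) and AMOTL2 at 0.46 ± 0.15 (adjusted p = 0.0448). Within cluster 8, where 0.535% of all genes were higher and 0.919% lower, the lists of this and the preceding paragraph had few calls. There 2 of 17 ERK genes and 1 each of 24 hypoxia, 21 immediate early and 10 YAP/TEAD genes were lower, and 0 higher in any. In cluster 9 4.90% of all genes were higher and 5.72% lower. There 4 of 17 ATF4, 3 of 24 hypoxia and 2 of 17 ERK genes were higher. So was 1 each of 10 NRF2, 14 unfolded protein, 3 metallothionein, 21 immediate early and 10 YAP/TEAD genes. In the same cluster 6 of 21 immediate early genes and 1 each of 17 ERK and 10 YAP/TEAD genes were lower. Lists with 1 call are not read as changed. The calls of NGFR, CXCL8, DNAJB1, SPRY2, AMOTL2, MCM7, SLC7A11, NUPR1, MT2A and KRT8 were lost when a single well was left out.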

How the data were processed

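The deposited matrix holds UMI counts for each gene in every cell. The authors aligned reads to hg38 and counted them with Cell Ranger, whose version is not given in the sources used here, and filtered cells in Seurat V3. Their cell table gives well, replicate, cluster, state and phase, and also the percent of mitochondrial reads and phase scores computed by the authors before deposit. No further cells were removed and no doublet caller was run.

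Counts of primed cells were summed per well and tested with edgeR 4.0.16 in R 4.3.3 (filterByExpr, TMM factors of 0.879 to 1.11, glmQLFit, two-sided glmQLFTest, Benjamini-Hochberg over all genes, threshold 0.05, 5 residual degrees of freedom). The standard error was the log2 fold change divided by the root of F, and CPM were scaled by TMM. The difference of the states was fitted with well as block. Shares used Python 3.11.15 and scipy 1.17.1. DESeq2 1.42.0 was an alternative, cluster 8 alone, cluster 9 alone and permutation within replicate were alternatives chosen after seeing the data, and the fits were tested on simulated data. Across 13372 genes the difference of r2 and r1 correlated between the classes (Pearson's r = 0.800), so replicate was kept as block. Wells of a pair differed by more than counting noise (chi-square per degree of freedom 2.89 to 15.0).

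Named genes were EGFR, NGFR, NT5E, AXL, SOX10 and MITF, the 8 largest rises and 8 largest falls among calls with a mean of at least 10 CPM and no overlap within either replicate, and up to 3 called members per list, by size of change, at that level. Results for some named genes are not reported here. Other members were named after their values were seen. The wells' classes, members and lists were chosen with earlier results of these data known.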

Additional observations from a re-analysis of the deposited data

Results flagged for a closer look

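Among 176 groups of 4 wells looked at, 10 had a well far from the other 3. The limit used flags about 1 in 20 groups by chance when all 4 values vary alike, which wells of different replicates need not do. The count is near that rate and is not read as an excess, so these wells are a description. They were well 2 for SOX10 (9.98 CPM) and ITGB8 (32.2 CPM) among primed-rich wells. Among primed-poor wells they were well 3 for HLA-C (251 CPM), DNAJB1 (89.0 CPM) and CEBPB (473 CPM), well 4 for LTBP1 (34.5 CPM), ARHGEF17 (22.4 CPM) and NQO1 (717 CPM), well 7 for CXCL8 (94.7 CPM) and well 8 for ZEB1 (6.85 CPM).

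For 32 of 80 named genes edgeR's test found that the change between the classes was not the same in primed and drug-susceptible cells, beside 2.27% of all genes higher and 3.72% lower. The named genes were largely picked by the size of their change in primed cells, which favours such a difference, so that this count is a description. The values are log2 differences, primed minus drug-susceptible. Positive values were found for NRG1 (3.03), SLC7A11 (2.37), IFI27 (1.63), LIF (1.43), ITGB8 (1.22), TIMP3 (0.97), ZEB1 (0.75), CDKN2C (0.64), GCLM (0.59), DNAJB9 (0.51), KRT8 (0.45), HLA-C (0.31) and MT1X (0.30). Negative values were found for ID1 (-2.88), BDNF (-2.29), AL162457.2 (-2.24), PMEL (-1.98), MLANA (-1.88), TDRD3 (-1.72), SOX10 (-1.67), GPM6B (-1.64), FRMD4B (-1.33), RGS1 (-1.27) and MITF (-1.03). Smaller negative values were found for CCNB1 (-0.92), ITGA6 (-0.88), SPRY2 (-0.81), SLC27A3 (-0.79), SOX4 (-0.51), KLF6 (-0.50), MCM7 (-0.34) and MT-CYB (-0.33). None of these passed when the 2 wells of a replicate and class were added together, where edgeR called 0 genes and 1636 had an unadjusted p under 0.05.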

How the results depend on the processing

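Against 1316 higher and 1440 lower genes, edgeR called 377 and 360 with the 2 wells of a replicate and class summed and 189 and 132 without the replicate block. It called 642 and 710 after thinning, 856 and 826 with equal cell numbers and 913 and 951 in G1 cells. Within clusters it called 158 and 167 in cluster 2, 60 and 103 in cluster 8 and 524 and 612 in cluster 9. Without a filter on low counts 2064 were higher and 1348 lower. The higher share of calls was then 60.5% beside 47.8%, and the median of all genes was shifted by 0.105. Leaving out a well gave 993 to 1193 higher and 1014 to 1293 lower genes. The difference of the states had 918 calls, with 2619 without a filter, 114 without the well as block and 0 with summed wells. It had 2407 within r1, 2116 within r2, 477 in G1 cells, 361 after thinning and 455 to 829 with a well left out. The difference in G1 was 9.38 to 11.4 percentage points without a well, that in S -3.97 to -2.68 and that in G2M -8.53 to -6.20. Exact permutation tests cannot reach 0.05 there, nor with the classes permuted within replicate as a replicate block, an alternative added after seeing the data, where the differences of 10.4, -3.24 and -7.13 points had p = 0.0556 each. Within r1 the differences were 10.2, -3.43 and -6.80 points and within r2 10.51, -3.05 and -7.46 points.

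Of 1757 alternative values of 80 named genes 1455 kept direction and side of the threshold, 259 lost the call, 4 gained it and 39 changed sign, 34 of these within clusters. Without the replicate block 46 genes lost the call, and with summed wells 22. Signs changed in cluster 2 for NGFR (0.34), ID1 (0.70), ITGA6 (0.29), ERRFI1 (-0.0535), CDT1 (0.26), CCNB1 (0.34), HMMR (0.41), CCNB2 (0.41), VEGFA (-0.0570), CEBPB (-0.0755), DNAJB9 (-0.11), MT1X (-0.24), MT2A (-0.44), GCLM (-0.14) and PECAM1 (-0.0069). In cluster 8 they changed for NGFR (0.12), NT5E (0.0081), SOX10 (0.82), MLANA (0.58), TGFBR1 (-0.35), TIMP3 (-0.15), BGN (-0.36), ITGA2 (-0.24), DNAJB1 (0.0549), ERRFI1 (-0.21), CDT1 (0.0198), HMMR (0.0980), CDK6 (0.18), VEGFA (-0.0098), CEBPB (-0.21), NUPR1 (0.45) and PECAM1 (-0.61). In cluster 9 they changed for NT5E (0.0319) and NUPR1 (0.0177), without a filter for NT5E (0.0048), within r1 for AXL (-0.0471) and AMOTL2 (-0.0420), within r2 for NT5E (0.0732), and without the deepest primed cells for CXCL8 (0.995). The cause was not tested. With a well left out 10 named genes lost the call. CXCL8 had -0.03 without well 7, SPRY2 -0.27 without well 3 and AMOTL2 0.27 without well 7, while AXL gained the call without well 3 (0.35).

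The labels do not give the sort of each well, and the depth of primed cells was 52839 to 105951 median UMIs in primed-rich and 32169 to 49073 in primed-poor wells, so class, sort and depth cannot be told apart in full. Thinning to 10000 UMIs matched the depth per cell, not the number of cells in a sum, and gave 642 higher and 710 lower genes. Cluster 8 rests on 13 to 95 cells per primed-rich well.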
